A study of Mus musculus with 12 samples.

Results

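Integrins are paired membrane receptors made of 1 alpha and 1 beta subunit, and 10 genes that encode subunits used by leukocytes are described here in CD115+ monocytes of the mouse spleen and blood. The genes were taken by symbol from a given list (Itgam, Itgal, Itgax, Itgad, Itgb2, Itga4, Itga5, Itgb1, Itgb7 and Itgb5). This list was chosen with earlier results of these data known. They are 10 of the 52553 features that remained after entries of the same gene were summed, and all 10 passed the filter on low counts that left 20135 features for testing.

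RNA sequencing was done on monocytes of male C57BL/6 mice that had an intact spleen. The 4 groups were spleen and blood of intact animals, in which neither spleen nor liver had been operated on, and spleen and blood collected when 24 h had passed since 70% of the liver was resected. Each group had 3 libraries, each from the cells of 5 mice, obtained by gradient centrifugation and magnetic sorting for CD115, the receptor of colony-stimulating factor 1. For spleen cells the paper also lists mechanical disaggregation, collagenase and lysis of red blood cells, which it does not list for blood. Tissue and preparation therefore cannot be told apart where blood and spleen are compared. The labels name no sham operation, so anaesthesia, surgery and loss of liver mass cannot be told apart. The pools, not single animals, were the replicates, and p-values measure the spread between these pools. Levels are given as CPM (counts scaled to a common library size with TMM factors), and a gene was called where the Benjamini-Hochberg adjusted p-value of edgeR's quasi-likelihood test over all tested features was under 0.05. The libraries held from 36990033 to 46401368 estimated counts.

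The alpha subunits determine most of the ligand specificity and the beta subunits connect the pair to the actin cytoskeleton. Integrin beta 2 (Itgb2, CD18) is restricted to leukocytes and pairs with alpha L (Itgal, CD11a) to form LFA-1, with alpha M (Itgam, CD11b) to form Mac-1 or complement receptor 3, with alpha X (Itgax, CD11c) and with alpha D (Itgad, CD11d). Integrin beta 1 (Itgb1, CD29) pairs with alpha 4 (Itga4, CD49d) to form VLA-4, a receptor for Vcam1 and fibronectin, and with alpha 5 (Itga5, CD49e) to form the fibronectin receptor VLA-5. Alpha 4 also pairs with beta 7 (Itgb7), a receptor for the mucosal addressin Madcam1, and beta 5 (Itgb5) pairs with alpha V (Itgav) to bind vitronectin. In monocytes LFA-1, Mac-1 and VLA-4 are known for firm adhesion to endothelium before the cells leave the blood.

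Itgal, Itgam, Itgax and Itgad lie on chromosome 7, Itga5 and Itgb7 on chromosome 15, Itga4 on chromosome 2, Itgb1 on chromosome 8, Itgb2 on chromosome 10 and Itgb5 on chromosome 16. The promoter table of RefSeq (GRCm38.p6) held a window of 300 bases around the annotated start for 7 of the 10 genes. The windows of Itgam, Itga5 and Itgb1 are shown because these genes passed the test in blood after resection, and that of Itgax because its level was lower in blood than in spleen after resection. Capitals mark GAGGAA, a core of sites of the myeloid factor PU.1, or TGANTCA, the site of AP-1, searched on both strands. No window held both motifs.
Itgam, chr7:128062390-128062689, plus strand: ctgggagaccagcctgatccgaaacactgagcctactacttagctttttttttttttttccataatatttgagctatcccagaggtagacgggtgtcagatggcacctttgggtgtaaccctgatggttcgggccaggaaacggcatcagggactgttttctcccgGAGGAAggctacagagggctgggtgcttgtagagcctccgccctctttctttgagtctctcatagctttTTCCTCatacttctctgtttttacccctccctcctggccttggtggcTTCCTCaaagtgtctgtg
Itga5, chr15:103366742-103367041, minus strand: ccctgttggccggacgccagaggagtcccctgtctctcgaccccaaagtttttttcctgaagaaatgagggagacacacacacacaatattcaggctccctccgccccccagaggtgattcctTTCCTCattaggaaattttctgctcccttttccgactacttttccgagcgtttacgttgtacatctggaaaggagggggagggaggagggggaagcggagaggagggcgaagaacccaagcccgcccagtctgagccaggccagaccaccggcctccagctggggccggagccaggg
Itgb1, chr8:128685404-128685703, plus strand: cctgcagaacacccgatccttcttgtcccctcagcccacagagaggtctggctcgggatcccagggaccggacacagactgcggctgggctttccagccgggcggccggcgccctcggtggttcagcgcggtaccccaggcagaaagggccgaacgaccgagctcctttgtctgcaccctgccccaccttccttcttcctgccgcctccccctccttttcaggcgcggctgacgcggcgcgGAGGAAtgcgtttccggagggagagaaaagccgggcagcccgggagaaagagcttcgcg
Itgax, chr7:128129300-128129599, plus strand: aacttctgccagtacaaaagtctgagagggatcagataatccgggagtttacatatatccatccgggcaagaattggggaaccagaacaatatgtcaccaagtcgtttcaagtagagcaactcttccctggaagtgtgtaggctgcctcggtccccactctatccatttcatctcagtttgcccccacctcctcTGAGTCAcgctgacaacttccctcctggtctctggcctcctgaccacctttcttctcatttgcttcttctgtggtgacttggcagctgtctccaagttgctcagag
GAGGAA or its reverse complement occurred 3 times in the window of Itgam, with first bases at -84, -15 and 33 from the start site, and once each in those of Itga5 (-127) and Itgb1 (-9). It was also present in the window of Itgb7 (3), so that 4 of the 7 windows held it, as did 28.3% of the 32851 windows of all genes in the table. TGANTCA was found in 1 of the 7, that of Itgax at -56, and in 7.81% of all windows. These matches describe letters only.

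The labelled cell type was checked with 8 monocyte markers. Csf1r, which encodes CD115, was detected in every library, from 209 CPM in intact blood library 3 to 1192 CPM in resected spleen library 2. The summed monocyte markers ran from 606 to 1719 CPM in intact blood, from 2281 to 3701 CPM in resected blood, from 1428 to 1853 CPM in intact spleen and from 2766 to 3382 CPM in resected spleen. RNA of other cells was present in all groups. Summed B cell markers ran from 4700.3 to 5314 CPM in intact spleen, above the monocyte sum of each library there, from 1304 to 4143 CPM in resected spleen, from 562 to 2525 CPM in intact and from 819 to 1936 CPM in resected blood. Haemoglobin transcripts made up 13.2% to 34.2% of the gene counts in blood and 0.0814% to 3.47% in spleen. Of the 12 libraries 2 are described here as standing apart from the others of their group. Intact blood library 3 had 2612 CPM of summed T cell markers, against 943 and 918 CPM in the other intact blood libraries, and the lowest sum of monocyte markers. Lck made up 1202 CPM of that sum, and 2 of the 8 T cell markers were lower there than in the other intact blood libraries, Cd8a (12.9 against 70.5 and 65.3 CPM) and Cd5 (11.4 against 64.0 and 54.4 CPM). Resected spleen library 3 had 15164 CPM of summed neutrophil markers, against 5839 and 5604 CPM in the other libraries of its group. S100a8 and S100a9 led that sum with 4707 and 4284 CPM, while Ly6g was at 26.4 CPM against 27.9 and 28.0 CPM. Resected blood library 3 also differed from its group, with 19946 CPM of summed neutrophil markers against 3863 and 4834 CPM. It is not counted among the 2 and was kept in the fits without both of them. In such bulk samples, fewer cells of a type and less RNA per cell cannot be told apart.

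In the blood, resection was followed by higher transcript levels of both common beta subunits, Itgb2 and Itgb1, and of 1 alpha partner of each, Itgam and Itga5. These 4 of 10 genes were called higher and 0 were called lower, where 21.1% of all tested features were called (10.8% higher and 10.3% lower). At an unadjusted p under 0.05 the count was 4 as well, where 35.9% of all features passed. The 10 genes had a median log2 fold change of 0.24, against a median of -0.10 over all tested features. The plot of levels by library shows the separation of the resected blood libraries for these genes.

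**Figure D1:**
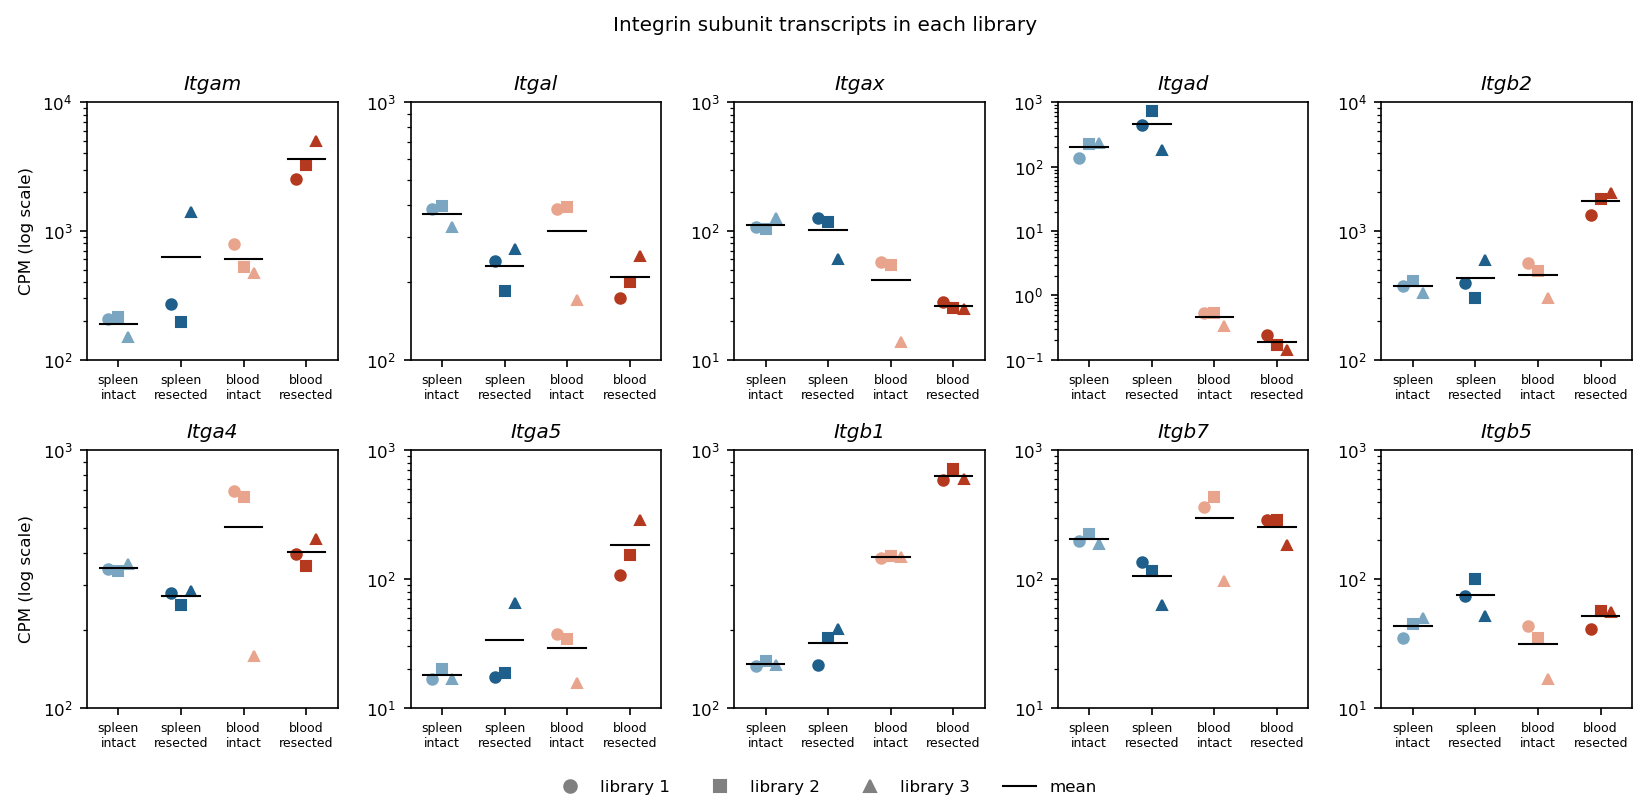
Level of each integrin subunit transcript in every library, in CPM on a log scale. Points are libraries 1 to 3 of each group and lines are group means. Itgam, Itgb2, Itga5 and Itgb1 were highest in all 3 resected blood libraries, and Itgad was below 1 CPM in all 6 blood libraries.

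Itgam stood at 797, 529 and 475 CPM in the 3 libraries of intact blood and at 2520.2, 3241 and 5038 CPM after resection. The libraries of the 2 states did not overlap. The log2 fold change was 2.58 ± 0.68 (SE, n = 3 per group, adjusted p = 0.0241). The call was lost in 4 of the 6 fits that left out 1 blood library, with log2 fold changes from 2.28 to 2.65 and adjusted p from 0.0543 to 0.0769. These were the fits without intact library 2 (2.51, adjusted p = 0.0723) or 3 (2.43, 0.0643) and without resected library 2 (2.65, 0.0543) or 3 (2.28, 0.0769).

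Its partner Itgb2 stood at 566, 491 and 302 CPM in intact blood and at 1339, 1766 and 1986 CPM in resected blood. Again the states did not overlap. The log2 fold change was 1.91 ± 0.30 (SE, n = 3 per group, adjusted p = 0.00311), and it remained called in all 12 fits without 1 library.

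Itga5 stood at 37.5, 34.5 and 15.7 CPM in intact blood and at 107, 153 and 290.0 CPM after resection, with no overlap. Its log2 fold change was 2.65 ± 0.59 (SE, n = 3 per group, adjusted p = 0.0121). The call held in all 12 fits without 1 library.

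Itgb1 varied least between libraries. It stood at 383, 388 and 385 CPM in intact blood and at 766, 850.0 and 776 CPM in resected blood. The log2 fold change of 1.05 ± 0.14 (SE, n = 3 per group) had the smallest adjusted p of the 10 genes, 0.00148. The intact library that was low for several other integrins was not low for Itgb1.

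The other 6 genes were not called in blood. Itgal, the alpha chain of LFA-1, stood at 386, 393 and 171 CPM in intact blood and at 173, 200.4 and 253 CPM after resection. The 2 higher intact libraries lay above all resected ones and the third below them, and the log2 fold change was -0.60 ± 0.30 (SE, adjusted p = 0.176). Itgax had the same arrangement, with 56.9, 54.4 and 13.7 CPM in intact and 27.9, 25.1 and 24.8 CPM in resected blood (log2 fold change -0.68 ± 0.45, adjusted p = 0.301). Itga4 stood at 694, 657 and 159 CPM and then at 396, 357 and 452 CPM (-0.33 ± 0.42, adjusted p = 0.617).

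Itgb7 stood at 362, 432 and 96.9 CPM in intact blood and at 286, 289 and 185 CPM after resection, with a log2 fold change of -0.23 ± 0.47 (adjusted p = 0.770). Itgb5 had 43.0, 34.8 and 16.7 CPM in intact and 41.1, 56.7 and 55.8 CPM in resected blood, and the states overlapped (0.70 ± 0.34, adjusted p = 0.169). Itgad was near the limit of detection in blood, with 19, 21 and 15 counts in the intact and 8, 5 and 5 counts in the resected libraries. These are 0.523, 0.540 and 0.328 CPM and 0.244, 0.170 and 0.141 CPM, which did not overlap, but the log2 fold change of -1.30 ± 0.63 was not called (adjusted p = 0.169). With Itgad, 5 of the 10 genes had non-overlapping libraries, against 38.4% of all tested features.

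For Itgal, Itgax, Itga4, Itgb7 and Itgb5, intact blood library 3 was the lowest of the 3 intact libraries by a wide margin, and it was the lowest for Itgam, Itgb2 and Itga5 too. Without it, 6 genes were called in blood, 3 higher and 3 lower, where 21.6% of all features were called. The added calls were lower after resection and were Itgax (-1.11, adjusted p = 0.0172), Itgal (-0.91, adjusted p = 0.0134) and Itga4 (-0.76, adjusted p = 0.00492), while Itgam was not called. Without this library and resected spleen library 3 together, 7 genes were called, where 25.4% of all features were. Itgam was among them (2.44, adjusted p = 0.00355). The plot of fold changes with libraries left out gives these values.

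**Figure D2:**
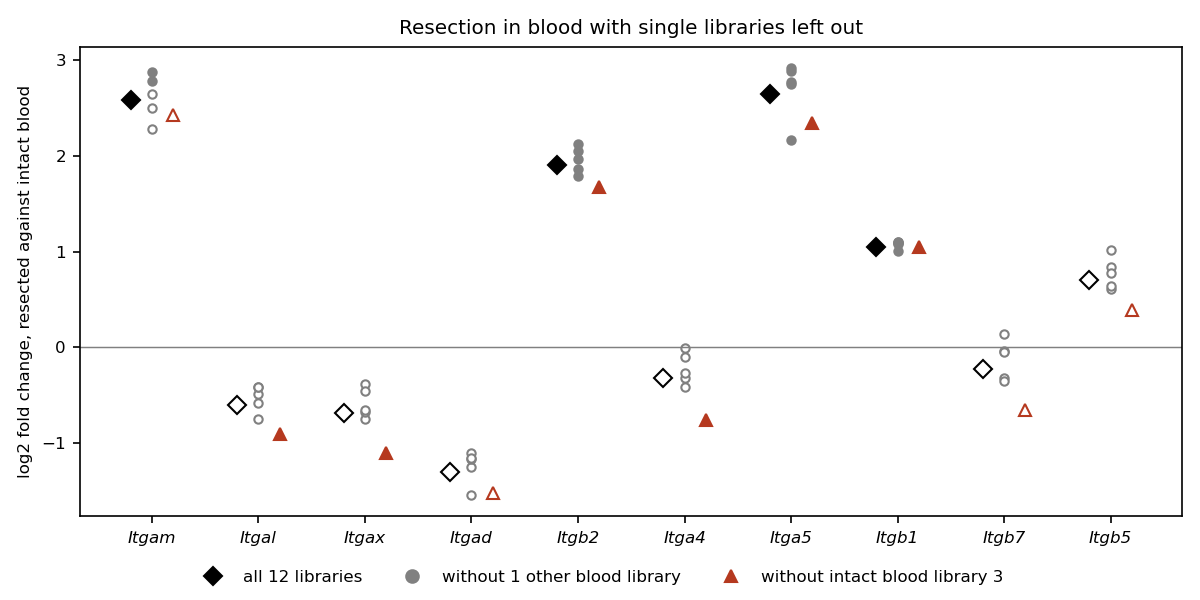
Log2 fold change of each integrin subunit in blood after resection, in the fit of all 12 libraries (diamonds), without each of the other 5 blood libraries (circles) and without intact blood library 3 (triangles). Filled symbols have an adjusted p under 0.05. Without intact library 3, Itgal, Itgax and Itga4 became called lower.

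Markers of other cells moved with these genes in blood. All 12 neutrophil markers were called higher after resection, and their sum ran from 144 to 526 CPM in intact and from 3863 to 19946 CPM in resected blood. The resected library with the highest neutrophil sum, library 3, also had the highest Itgam, Itgb2 and Itga5 levels, while it did not have the highest Itgb1 level. Of 6 peritoneal macrophage markers 5 were called higher, and their sum ran from 399 to 1176 CPM in intact and from 4440 to 5205 CPM in resected blood. Of 8 red pulp macrophage markers 7 were called higher (sums of 149 to 677 CPM and 1166 to 1729 CPM), and the defining marker Spic reached at most 6.42 CPM in blood. Of 8 T cell markers 7 were called lower, with sums of 918 to 2612 CPM in intact and 149 to 293 CPM in resected blood. Intact blood library 3, with the highest T cell sum of its group, had the lowest Itgal (171 CPM), Itga4 (159 CPM) and Itgb7 (96.9 CPM) levels there. Its Itgb1 level of 385 CPM lay between those of the other intact blood libraries. The monocyte marker sum ran from 606 to 1719 CPM in intact and from 2281 to 3701 CPM in resected blood. Of these 8 markers 2 were called higher and 1 lower. Neutrophils express Itgam and Itgb2, and T cells express Itgal, Itga4, Itgb1 and Itgb7. The part of these cells in the integrin results was not tested.

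**Figure D3:**
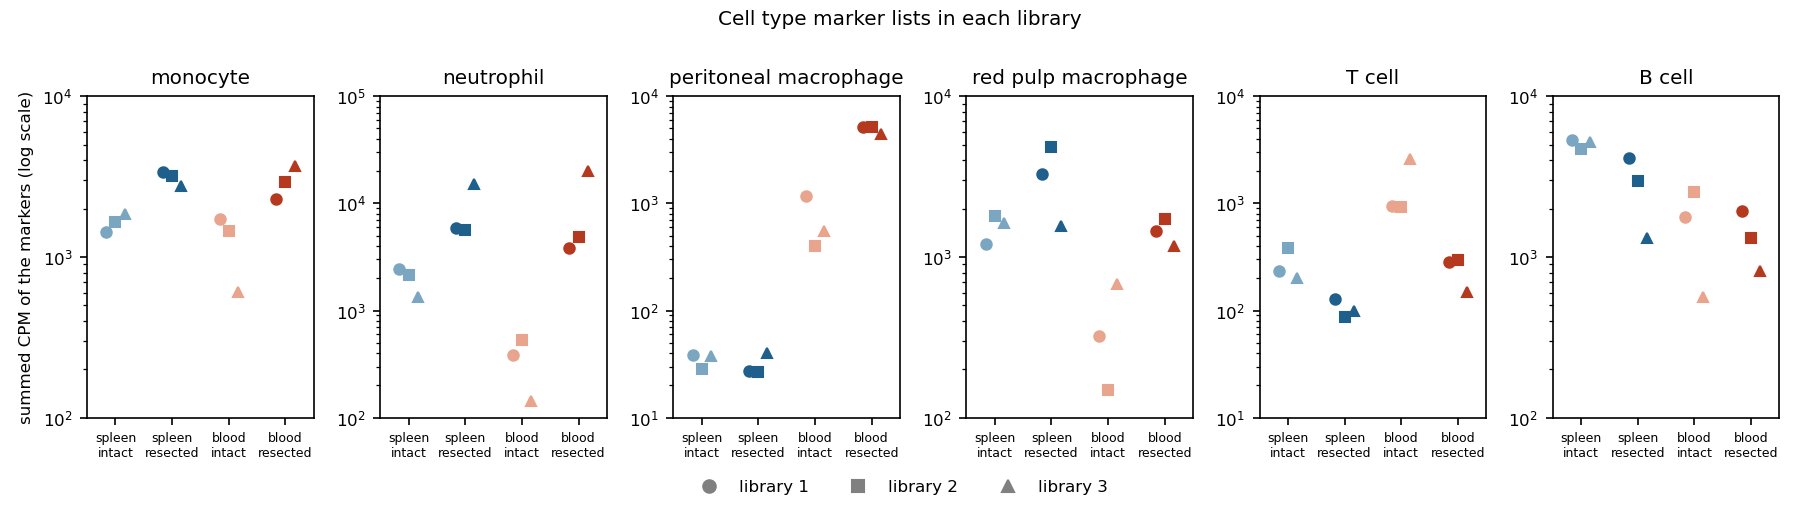
Summed CPM of the markers of 6 cell types in every library, on a log scale. Points are libraries 1 to 3 of each group. Neutrophil markers ran from 3863 to 19946 CPM in resected blood and from 144 to 526 CPM in intact blood, and peritoneal macrophage markers were at most 39.8 CPM in the spleen libraries.

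In the spleen, resection was followed by no called change of the 10 genes. Among all tested features 2.06% were called (1.02% higher and 1.03% lower), and at an unadjusted p under 0.05 the count was 4 of 10 integrin genes (Itgad, Itgam, Itgb5 and Itgal) against 20.8% of all features. DESeq2 called 1 gene, Itgam, where it called 13.8% of all features. The median log2 fold change of the 10 genes was 0.25, against 0.05 over all tested features. The libraries did not overlap for 4 genes, namely Itga4, Itgal and Itgb7, which were lower in all resected libraries, and Itgb5, which was higher, where 35.1% of all features did not overlap.

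Itgam stood at 207, 215 and 149 CPM in intact spleen and at 269.6, 195 and 1412 CPM in resected spleen. Only resected library 3 exceeded the others by a wide margin, and the log2 fold change of 1.72 ± 0.66 (SE, n = 3 per group, adjusted p = 0.175) was 0.29 without that library. Itga5 had a like arrangement, with 16.7, 20.1 and 16.8 CPM in intact and 17.3, 18.5 and 65.1 CPM in resected spleen (0.91 ± 0.56, adjusted p = 0.385), and 0.01 without library 3. Itgb2 stood at 374, 408 and 328 CPM and then at 391, 304 and 596 CPM, with its highest value again in resected library 3 (0.22 ± 0.29, adjusted p = 0.733). Summed neutrophil markers ran from 1333 to 2428 CPM in intact and from 5604 to 15164 CPM in resected spleen, and 2 of the 12 markers (Ltf and Ly6g) were called higher. Their part in the splenic values was not tested.

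Itgad was abundant in spleen. It stood at 136, 222 and 235 CPM in intact spleen and at 446, 725 and 183 CPM in resected spleen. Resected libraries 1 and 2 were above all intact ones and library 3 was among them. The log2 fold change was 1.19 ± 0.42 (SE, n = 3 per group, adjusted p = 0.148). Itgb5 stood at 34.6, 44.5 and 49.96 CPM and then at 73.3, 99.7 and 52.0 CPM (0.80 ± 0.34, adjusted p = 0.217). Without resected spleen library 3 and intact blood library 3 these were the 2 genes called in spleen, where 4.49% of all features were called. The values were 1.57 for Itgad (adjusted p = 0.0309) and 1.01 for Itgb5 (adjusted p = 0.0461). In the same 2 resected libraries the red pulp macrophage markers summed to 3278 and 4813 CPM, against 1567 CPM in the third and 1207 to 1796 CPM in intact spleen, and 0 of these 8 markers were called. Their part in the levels of Itgad was not tested.

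Itgal stood at 385, 395 and 328 CPM in intact spleen and at 242, 185 and 268 CPM in resected spleen, with all resected libraries below all intact ones. Its log2 fold change was -0.67 ± 0.30 (SE, n = 3 per group, adjusted p = 0.232). Without intact blood library 3 Itgal was called lower (adjusted p = 0.0482), as 1 of the 10 genes, where 9.65% of all features were called. That library is in neither of the compared groups. It can enter through the shared estimate of the spread, the scaling, the filter and the adjustment, which were not separated. Itgb7 had 199, 223 and 187 CPM in intact and 137, 116 and 62.8 CPM in resected spleen (-0.95 ± 0.48, adjusted p = 0.289). Itga4 stood at 347, 339 and 362 CPM and then at 279.7, 250 and 285 CPM (-0.36 ± 0.42, adjusted p = 0.675). Of 7 B cell markers 0 were called, with sums of 4700.3 to 5314 CPM in intact and 1304 to 4143 CPM in resected spleen. Of 8 T cell markers 0 were called either, with sums of 202 to 384 CPM in intact and 87.4 to 127 CPM in resected spleen. Of the 5 tested NK cell markers Gzma was called lower, with sums of 68.5 to 141 CPM and 9.10 to 40.6 CPM. The part of these cells in the values of Itgal, Itgb7 and Itga4 was not tested.

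Itgax stood at 107, 104 and 126 CPM in intact spleen and at 125, 117 and 61.0 CPM in resected spleen (-0.15 ± 0.44, adjusted p = 0.894). Itgb1 stood at 145, 151 and 147 CPM and then at 147, 187 and 202 CPM (0.28 ± 0.14, adjusted p = 0.292). For both genes the states overlapped.

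**Figure D4:**
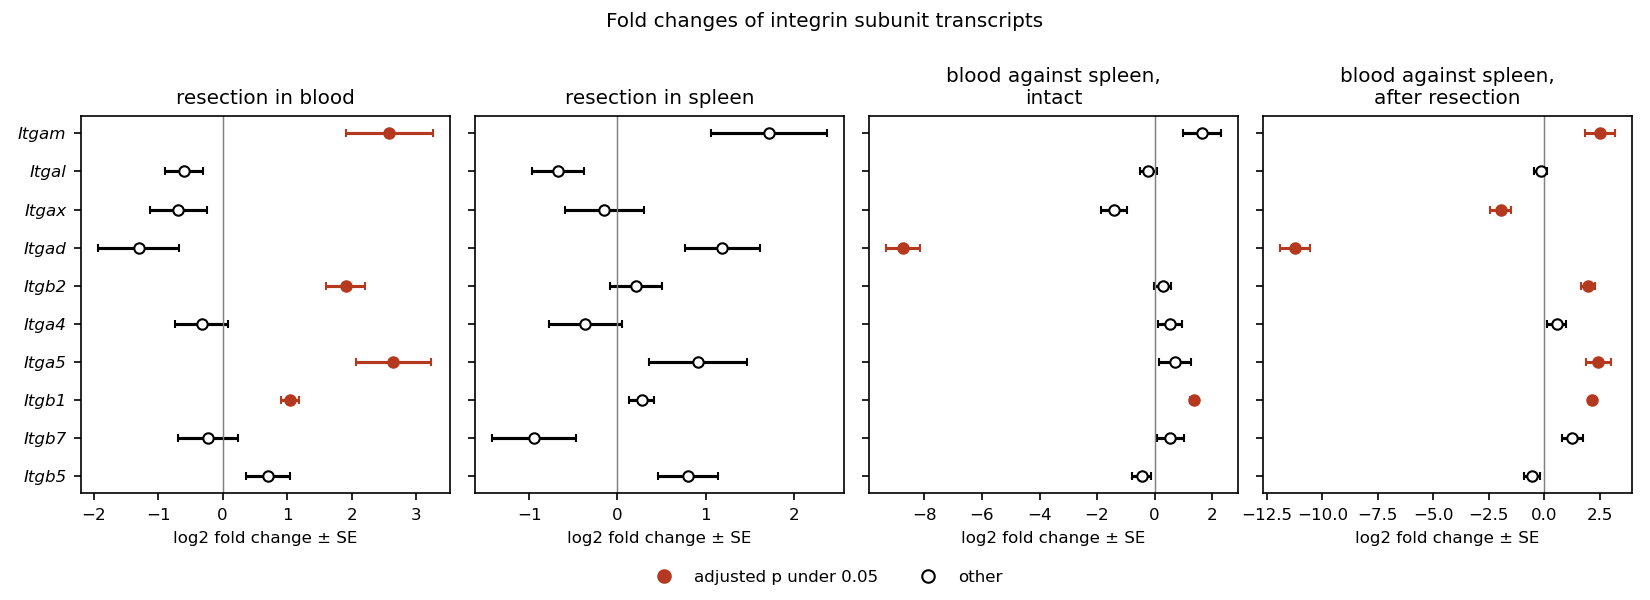
Log2 fold change of each integrin subunit in 4 comparisons, with standard errors from edgeR's quasi-likelihood fit of all 12 libraries. Filled red points have an adjusted p under 0.05. The points at -8.74 and -11.23 are Itgad, lower in blood than in spleen, and no splenic change after resection was called.

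The resection effects of the 2 tissues were compared directly by the difference of the fold changes, blood minus spleen. None of the 10 genes was called in edgeR, where 0.283% of all features were (0.219% higher and 0.0646% lower), and 3 had an unadjusted p under 0.05, against 17.3% of all features. These were Itgb2 (1.69 ± 0.42, adjusted p = 0.125), Itgb1 (0.77 ± 0.20, adjusted p = 0.133) and Itgad (-2.49 ± 0.76, adjusted p = 0.175). DESeq2 called these 3 genes, where it called 7.98% of all features. For Itgam, called in blood and not in spleen, the difference was 0.87 ± 0.91 (adjusted p = 0.656), and for Itga5 it was 1.73 ± 0.79 (adjusted p = 0.293). Without resected spleen library 3 these were 2.29 for Itgam (adjusted p = 0.0741) and 2.64 for Itga5 (adjusted p = 0.0929). Without the 2 libraries that stood apart, 3 genes were called, where 2.07% of all features were. These were Itgb2 (1.77, adjusted p = 0.0359), Itgax (-1.22, adjusted p = 0.0201) and Itgad (-3.08, adjusted p = 0.0429).

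Between blood and spleen of intact animals Itgad and Itgb1 differed. These 2 of 10 genes were called, with 9.17% of all features called (4.51% higher and 4.66% lower in blood). At an unadjusted p under 0.05 the count was 4, against 25.3% of all features. Itgad was lower in blood by 8.74 ± 0.60 on the log2 scale (n = 3 per group, adjusted p = 0.000175), from values of 136 to 235 CPM in spleen and 0.328 to 0.540 CPM in blood. Itgb1 was higher in blood by 1.38 ± 0.14 (adjusted p = 0.00107), with 383 to 388 CPM in blood and 145 to 151 CPM in spleen. Itgam was higher in all blood libraries (1.66 ± 0.66) and Itgax was lower in all of them (-1.43 ± 0.45), but their adjusted p-values were 0.146 and 0.0790. Without resected spleen library 3 Itgam was called (1.76, adjusted p = 0.0131), where 8.64% of all features were called. These 4 genes had non-overlapping libraries, against 34.5% of all features. The log2 differences of the other 6 genes lay between -0.45 (Itgb5) and 0.71 (Itga5). Without both libraries that stood apart 6 genes were called, where 12.2% of all features were. Beside Itgad and Itgb1, Itga4 (1.06), Itgb7 (1.07) and Itgam (1.91) were higher and Itgax (-0.90) was lower in blood.

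After resection blood and spleen differed in 6 of the 10 genes, 4 higher and 2 lower in blood, with 19.1% of all features called (8.55% higher and 10.6% lower). Higher in blood were Itgam (2.52 ± 0.68, adjusted p = 0.0284), Itga5 (2.45 ± 0.58, adjusted p = 0.0179), Itgb1 (2.16 ± 0.14, adjusted p = 5.78e-05) and Itgb2 (1.98 ± 0.31, adjusted p = 0.00271). Lower in blood were Itgad (-11.23 ± 0.68, adjusted p = 3.02e-05) and Itgax (-1.96 ± 0.46, adjusted p = 0.0170). All of these had non-overlapping libraries, as had Itga4 and Itgb7, against 42.4% of all features. Itgb7 was higher in each blood library (1.27 ± 0.48, adjusted p = 0.0924), and Itga4 by 0.56 ± 0.42 (adjusted p = 0.374). Itgal (-0.15 ± 0.30) and Itgb5 (-0.55 ± 0.34) overlapped. The comparisons share their groups with those of resection, so they are not independent of them.

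The calls of Itgb1, Itgb2 and Itgad after resection held in all 12 fits without 1 library. Those of Itga5 were lost without resected spleen library 1 (2.23) or 2 (2.25) and without resected blood library 3 (2.06). Those of Itgam were lost without the same libraries (2.26, 2.20 and 2.32) and without resected blood library 2 (2.69). Without resected spleen library 3 the values were larger, 4.05 for Itgam (adjusted p = 0.000709) and 3.45 for Itga5 (adjusted p = 0.00332). In the fit of only the compared groups Itgam was not called (2.57, adjusted p = 0.0806), and 7 other genes were, where 19.9% of all features were called. The call of Itgax was lost in 5 of these fits, those without resected spleen library 1 or 2 or any 1 resected blood library. The blood libraries were rich in peritoneal macrophage markers, which summed to 26.7 to 39.8 CPM in all resected and 28.5 to 38.2 CPM in intact spleen libraries. All 6 of these markers were called higher in blood than in spleen in both states, and their part in the tissue differences was not tested. Of the 8 red pulp macrophage markers 4 were called lower in blood than in spleen in intact animals (Mertk, Slc40a1, Spic and Vcam1) and 3 after resection (Slc40a1, Spic and Vcam1). None was called higher, and Cd5l alone had a positive log2 difference, 1.39 (adjusted p = 0.458) in intact animals and 0.95 (adjusted p = 0.568) after resection. Of the 7 B cell markers 1 was called lower in blood in intact animals (Cd22) and 0 after resection. Of the 8 T cell markers 6 and 4 were called higher in blood. Of the 12 neutrophil markers 6 were called lower in blood in intact animals and 2 after resection, and 0 were called higher in either state. The part of these cells in the tissue differences was not tested.

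Levels of different genes were compared as CPM per kilobase of transcript. In intact spleen Itgb2 led with a mean of 125 ± 13.5 (SD, n = 3), followed by Itgb7 (75.7 ± 6.75) and Itgal (70.7 ± 6.91), whose libraries overlapped. Itgad (49.9 ± 13.5) and Itgam (40.6 ± 7.65) overlapped as well, as did Itgam and Itgb1 (38.7 ± 0.891). Itga4, Itgax, Itgb5 and Itga5 followed with 35.8, 27.7, 13.1 and 4.07, and each of these did not overlap with the next. In resected spleen each neighbour in the order overlapped with the next, from Itgb2 (145 ± 50.5) to Itgb5 (22.8 ± 7.27), and only Itga5 (7.68 ± 6.22) lay below its neighbour in every library.

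In intact blood Itgb2 (152 ± 45.9), Itgam (128 ± 36.8), Itgb7 (111 ± 65.8) and Itgb1 (101 ± 0.614) led, and Itgb2, Itgam and Itgb7 each overlapped with the next. Itgb1 did not overlap with Itgal. Then came Itgal (60.7 ± 24.2), Itga4 (51.5 ± 30.6), Itgax (10.3 ± 5.99), Itgb5 (9.60 ± 4.10) and Itga5 (6.67 ± 2.70), with Itgad at 0.117 ± 0.0297. Of these, Itgal overlapped with Itga4, Itgax with Itgb5 and Itgb5 with Itga5. Itga4 did not overlap with Itgax, and Itga5 did not overlap with Itgad. After resection the order in blood was led by Itgam (769 ± 277) and Itgb2 (571 ± 111), which overlapped, before Itgb1 (209 ± 12.01), Itgb7 (94.4 ± 22.0), Itga5 (41.8 ± 21.7), Itga4 (41.1 ± 4.88) and Itgal (40.0 ± 7.74). Itgb5 (15.6 ± 2.66), Itgax (6.41 ± 0.418) and Itgad (0.0466 ± 0.0135) closed it. Itga5, Itga4 and Itgal did not differ beyond their spread, while Itga5 had been the least abundant but Itgad in intact blood.

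The make-up of the transcripts for the 4 partners of Itgb2 is given as shares of their sum per kilobase, as a description. In intact spleen Itgal took 33.9% to 41.2%, Itgad 19.3% to 32.1%, Itgam 17.2% to 24.8% and Itgax 12.6% to 16.8%. In resected spleen Itgad took 45.5%, 63.3% and 11.1% and Itgam 23.3%, 14.4% and 72.8% in libraries 1, 2 and 3. In intact blood Itgam took 55.9% to 73.7% and Itgal 23.8% to 37.3%. In resected blood Itgam took 93.1% to 95.2%, Itgal 4.28% to 5.74% and Itgax 0.543% to 1.19%. Itgad took at most 0.0674% in any blood library. The genes of the 4 alpha subunits are related in sequence, and how reads shared between them were counted is not given in the sources used here.

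**Figure D5:**
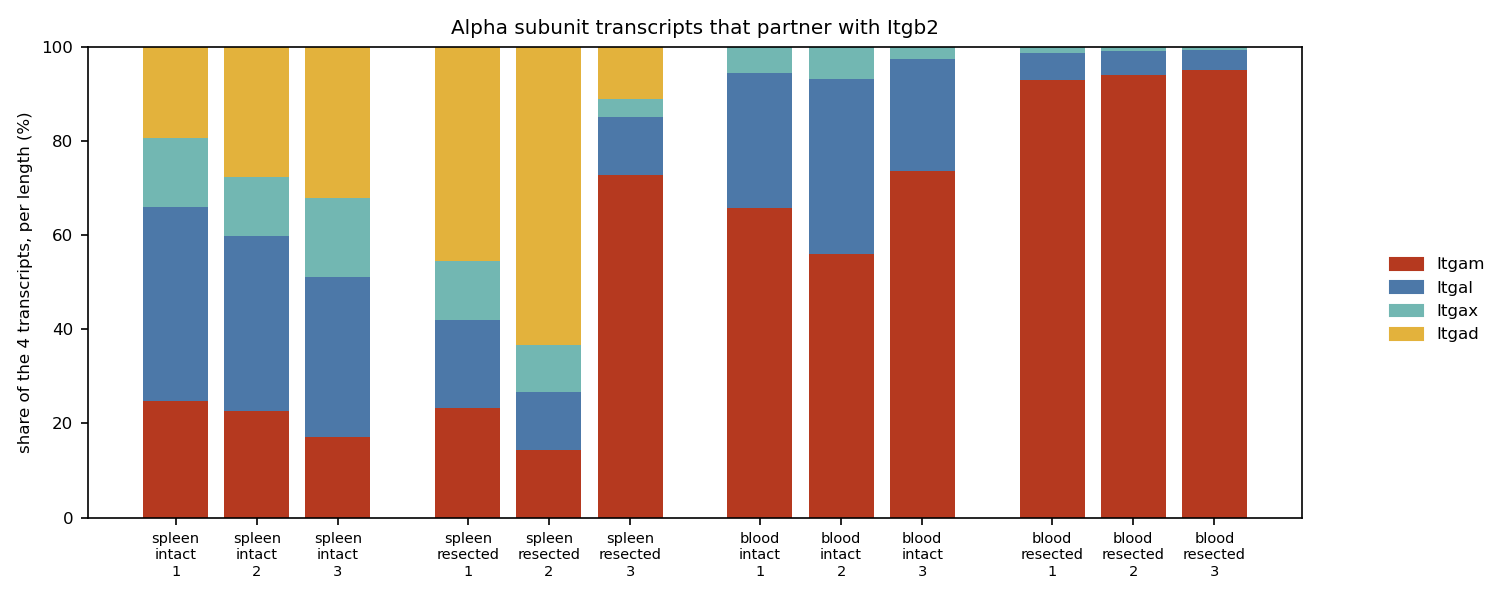
Share of Itgam, Itgal, Itgax and Itgad in their summed transcripts per kilobase, in percent, for each library. Itgam took 93.1% to 95.2% in the resected blood libraries and 17.2% to 24.8% in the intact spleen libraries, and resected spleen library 3 (72.8%) stood apart from the other libraries of its group.

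Ratios of each alpha to its beta transcript, per kilobase, followed the same lines. Itgam to Itgb2 was 0.324 ± 0.0326 (SD, n = 3) in intact spleen, 0.858 ± 0.161 in intact blood and 1.32 ± 0.249 in resected blood, and ran from 0.407 to 1.503 in resected spleen. Itgal to Itgb2 was 0.568 ± 0.0171 in intact and 0.318 ± 0.0540 in resected spleen, and 0.389 ± 0.0665 in intact and 0.0702 ± 0.00492 in resected blood. Itgax to Itgb2 was 0.226 ± 0.0496 in intact spleen, 0.0628 ± 0.0258 in intact and 0.0116 ± 0.00322 in resected blood. In resected spleen it ran from 0.0752 to 0.283. Itgad to Itgb2 was 0.406 ± 0.132 in intact spleen and ran from 0.230 to 1.79 in resected spleen. In blood it was at most 0.000823 in intact and 0.000137 in resected libraries. Itga4 to Itgb1 was 0.924 ± 0.0465 in intact and 0.605 ± 0.120 in resected spleen, 0.510 ± 0.303 in intact and 0.198 ± 0.0319 in resected blood. Itga4 to Itgb7 ran from 0.339 to 0.670 over both blood groups and intact spleen, and from 0.562 to 1.25 in resected spleen. Itga5 to Itgb1 was 0.105 ± 0.00897 in intact spleen, 0.0661 ± 0.0268 in intact blood and 0.201 ± 0.109 in resected blood, and ran from 0.0863 to 0.280 in resected spleen. These are ratios of RNA, and the surface pairs were not measured.

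The other 17 integrin subunit genes were followed as a list, of which 15 were tested. In blood after resection 2 were called higher, Itga6 (1.44, adjusted p = 0.00562) and Itgb2l (4.73, adjusted p = 0.00667), and Itga10 was called lower (-1.83, adjusted p = 0.0180), which is 3 of 15 where 21.1% of all features were called. Itga6, the alpha 6 chain of laminin receptors, stood at 224, 143 and 140.2 CPM in intact blood and at 446, 495 and 432 CPM after resection. Itgb2l, a beta 2-like gene, was at most 17.6 CPM in any library, and Itga10 at most 3.01 CPM. In spleen 0 of the 15 were called, against 2.06% of all features. Between blood and spleen of intact animals Itga6 (3.37, adjusted p = 0.000361) and Itga2b (3.82, adjusted p = 0.00362), the platelet alpha IIb chain, were called higher in blood. Over all features 4.51% were called higher there. Both were again higher after resection, with Itga2 (2.52, adjusted p = 0.0189), where 8.55% of all features were. Itga10 was lower (-1.69, adjusted p = 0.0263), where 10.6% of all features were. All 8 platelet markers were called higher in blood than in spleen in both states, and their part in these integrin values was not tested. Itgav, the partner of Itgb5, was called in none of the comparisons and ran from 25.2 to 45.4 CPM over the 12 libraries.

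Of the 20 genes that activate integrins or link them to actin 18 were tested, and 5 of them were called higher in blood after resection, namely Rap1b (1.46, adjusted p = 0.00373), Skap2 (1.36, adjusted p = 0.00374), Pxn (1.06, adjusted p = 0.0240), Fermt3 (0.82, adjusted p = 0.00395) and Apbb1ip (0.44, adjusted p = 0.0407). Over all features 10.8% were called higher in blood. Rap1b is a small GTPase, Apbb1ip its effector RIAM, Fermt3 the kindlin-3 that binds beta tails, Pxn the adaptor paxillin and Skap2 an adaptor of the same route. Fermt3 stood at 219.9, 220.1 and 189 CPM in intact and at 355, 369.5 and 387 CPM in resected blood, without overlap. The median log2 fold change of the list was 0.34 in blood and 0.19 in spleen, where 0 were called, against 2.06% of all features. Between the tissues 1 gene was called in intact animals, Parvb (2.60, adjusted p = 0.0133), and 5 after resection, namely Rap1b, Apbb1ip, Fermt3, Pxn and talin (Tln1, 0.66, adjusted p = 0.0461), all higher in blood, where 4.51% and 8.55% of all features were.

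All 9 kinases and effectors that signal behind integrins were tested. Fgr (1.53, adjusted p = 0.0337), a Src family kinase of myeloid cells, and the focal adhesion kinase Ptk2 (1.03, adjusted p = 0.0419) were among the 3 called higher in blood after resection, and 0 were called lower, where 10.8% and 10.3% of all features were. In the 12 fits without 1 library 0 to 2 of the kinases were called. The list's median log2 fold change was 1.03 in blood and -0.22 in spleen, where 0 were called, against 2.06% of all features. In intact animals Ptk2b (-1.13, adjusted p = 0.0103) and Btk (-1.40, adjusted p = 0.0388) were lower in blood than in spleen, and Ptk2b was lower after resection as well (-0.69, adjusted p = 0.0390). Over all features 4.66% and 10.6% were called lower in these comparisons.

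Of 15 ligands 9 were tested, and 5 were called higher in blood after resection, against 10.8% of all features. In spleen 0 were called, against 2.06% of all features. Icam1, a ligand of LFA-1 and Mac-1, rose from 48.2, 59.0 and 15.5 CPM to 227, 301 and 408 CPM (2.93 ± 0.46, adjusted p = 0.00299). Icam2, another ligand of LFA-1, rose as well (1.44, adjusted p = 0.0115). The matrix proteins Spp1 (8.83, adjusted p = 0.000427) and Thbs1 (3.90, adjusted p = 0.0479) and the VLA-4 ligand Vcam1 (2.82, adjusted p = 0.0115) were also called, with Vcam1 at 4.78 CPM or less in blood. Fibronectin (Fn1), the ligand of VLA-5, stood at 6229.7, 3672 and 3051 CPM in intact and at 13802, 17084 and 19748 CPM in resected blood, and the log2 fold change of 1.97 ± 0.63 was not called (adjusted p = 0.0509). In spleen Fn1 ran from 301 to 452 CPM in intact and from 319 to 1792 CPM in resected libraries, and it was called higher in blood in both states (3.56, adjusted p = 0.0130, and 4.38, adjusted p = 0.00330). Spp1 (6.62, adjusted p = 0.000697) and Icam2 were called higher in blood after resection too. Icam4 was lower in blood than in spleen after resection (-3.34, adjusted p = 0.0280), and Vcam1 in both states (-10.32, adjusted p = 0.000240, and -8.07, adjusted p = 0.000287). After resection 3 of the 9 were thus higher and 2 lower, where 8.55% and 10.6% of all features were. In intact animals 1 was higher and 1 lower, where 4.51% and 4.66% were.

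The genes whose log2 CPM was most like that of each integrin over the 12 libraries were found among 8997 genes with a mean of at least 10 CPM, as a description. Pearson's r was 0.987 for Itgam with Dpep2 and 0.984 with Emilin1, 0.989 for Itgb2 with Stx12 and 0.986 with Arpc1b, and 0.987 for Itga5 with Rab31 and 0.986 with Hif1a. For Itgb1 the nearest were Serpinb2 (0.988) and Ltbp1 (0.986). Itgad was nearest to Asb2 (0.992) and Kcnj10 (0.992), Itgax to Mast4 (0.989) and Col20a1 (0.988), and Itgb5 to Csf1r (0.973) and Acvrl1 (0.942). Itgal was nearest to Rbl2 (0.971) and Slfn8 (0.950), Itgb7 to Ids (0.957) and Esyt1 (0.956), and Itga4 was close to Rinl (0.919). The 12 points share their libraries, depth, tissue and treatment.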

How the data were processed

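RNA-seq was done on 12 libraries of mouse CD115+ monocytes, 3 in each of 4 groups taken from the labels. For each library the authors deposited estimated counts, not scaled to library size or gene length. The submitters' processing notes name STAR and GRCm39, and the counting tool is not given in the sources used here. A library had 67088 entries. Those of 2558 unassigned transcripts (1.75% to 4.33% of a library) entered neither library sizes nor tests, and 25340 RefSeq accessions were added to their gene through the RefSeq table of GRCm38.p6, used for names. Such accessions gave at most 3.70% of the counts of an integrin gene. Sums were rounded to whole counts.

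Features were kept by filterByExpr, scaled with TMM factors (0.661 to 1.26) and tested in R 4.3.3 with edgeR 4.0.16 by a robust quasi-likelihood fit of all 12 libraries without covariates (common dispersion 0.312). The SE of a log2 fold change is its size divided by the square root of F. Transcript lengths are those of GENCODE M21 transcripts matched to RefSeq. Libraries of a group differed beyond counting error (21.3 to 618 for the chi-square divided by its degrees of freedom), so each was 1 replicate. Counting error is small beside this spread except for genes of a few counts. The alternatives were DESeq2 1.42.0, RLE factors, no filter, a minimum of 10 counts, a fold limit, entries as deposited, no haemoglobin genes, the replicate number as a block, a fit of only the compared groups, and each library left out. The fit without both libraries that stood apart was added after seeing the data.

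The integrin genes and all lists were chosen with earlier results of these data known. Named genes were the 10 integrin genes, the list genes and the 2 nearest genes of each. Some genes that met this rule are not reported here. Protein sequences were not used here.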

Additional observations from a re-analysis of the deposited data

Results flagged for a closer look

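One ligand, osteopontin (Spp1), which binds integrins of the alpha V, alpha 4 and alpha 9 chains, differed in its response to resection between the tissues. Spp1 stood at 0.991, 1.13 and 4.52 CPM in the libraries of intact blood and at 816, 1203 and 1042 CPM in resected blood. In spleen it stood at 2.99, 2.67 and 1.94 CPM and then at 5.98, 6.88 and 18.3 CPM. The difference of the log2 fold changes, blood minus spleen, was 6.80 ± 0.90 (edgeR, adjusted p = 0.0317). It was called in 5 of the 12 fits without 1 library, which gave 6.52 to 7.87 (adjusted p from 0.0125 to 0.0907). It was lost without any 1 intact spleen library, resected spleen library 1 or 2, resected blood library 2 or intact blood library 2.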

How the results depend on the processing

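Counts of called integrin genes changed without the 2 libraries that stood apart. Then 7 of 10 were called for resection in blood, 2 in spleen, 6 between the tissues in intact animals, 8 after resection and 3 in the difference of effects, where 25.4%, 4.49%, 12.2%, 31.9% and 2.07% of all features were called. Without 1 library at a time these counts ran from 3 to 6, from 0 to 1, from 2 to 3, from 3 to 8 and stayed at 0. DESeq2 called 1 gene in spleen, 4 between the tissues in intact animals and 3 in the difference. Over all features it called 13.8%, 18.3% and 7.98% there. A minimum of 10 counts, which removed Itgad, left 1 call in intact animals, where 10.7% of all features were called. Haemoglobin left out or RLE factors moved the median of all features by up to 0.12. Small values of genes that were not called changed sign. Without both libraries, in spleen Itgax was 0.12 and Itgb2 -0.090, Itgal between the tissues was 0.18 in intact animals and 0.068 after resection, and the difference of effects was -0.36 for Itga4 and -0.11 for Itgal. Without 1 library at a time Itgb7 in blood ran from -0.65 to 0.13, Itgax in spleen from -0.33 to 0.12, Itgb2 in spleen from -0.091 to 0.41, and Itgal between the tissues from -0.33 to 0.18 in intact animals and from -0.20 to 0.068 after resection. The difference of effects then ran from -0.39 to 0.36 for Itga4, from -0.23 to 0.28 for Itgal and from -0.41 to 0.22 for Itgb5. The cause of these changes was not tested. Over all features the 414 calls in spleen became 2773 with DESeq2, 116 without the filter, 775 with a minimum of 10 counts and 1 (without intact spleen library 1) to 2029 (without intact blood library 3) without 1 library. The 4242 calls in blood became 1938 in a fit of only its groups and 2446 to 4543 without 1 library. The 1846 in intact animals became 3692 with DESeq2, 1222 without the filter, 893 with only their groups and 560 to 1960 without 1 library. The 3851 after resection became 1864 to 5973 without 1 library and 6610 without both libraries. The 57 calls for the difference became 1606 with DESeq2, 22 without the filter, 103 with a minimum of 10 counts, 5 to 94 without 1 library and 430 without both. Counts of called genes of the other lists moved as well. In blood after resection those of other integrins, activation genes, kinases and ligands (3, 5, 3 and 5) ran from 2 to 5, from 3 to 5, from 0 to 2 and from 3 to 6 without 1 library, and DESeq2 gave 4, 7, 4 and 6. Between the tissues after resection (4, 5, 1 and 5) they ran from 2 to 7, from 3 to 12, from 0 to 2 and from 4 to 6, and DESeq2 called 12 activation genes. In spleen, with 0 in each list, they reached at most 1, 2, 1 and 1 without 1 library, and DESeq2 gave 2, 1, 1 and 2.

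Correlations of deviations from the group means were low between libraries of the same replicate number (-0.0461 to 0.189). The highest were for blood and spleen after resection, with 0.131 for number 2 and 0.189 for number 3. Different numbers gave -0.186 to 0.0734 there. Whether the same mice gave blood and spleen cannot be told from these values. With the number as a replicate block, Itgb7 was added after resection between the tissues (1.31, adjusted p = 0.0398), and no other call of the 10 genes changed. Over all features it left 192 calls in spleen and 1 in the difference. Spp1 lost its call in the difference (7.32, adjusted p = 0.0505), and the calls among activation genes and kinases went from 5 to 3 and from 3 to 1 in blood, and from 5 to 3 and from 1 to 0 between the tissues after resection.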
